A study of Mus musculus with 25 samples.

Results

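The genes described here are 10 members of the mouse MHC class II pathway, taken by gene symbol from a table of 55450 genes measured in 25 melanomas. They are the class II transactivator Ciita, the chains of the peptide-presenting molecules (H2-Aa, H2-Ab1 and H2-Eb1), the invariant chain Cd74, the peptide editor H2-M (H2-DMa, H2-DMb1 and H2-DMb2) and its inhibitor H2-O (H2-Oa and H2-Ob). All 10 were found, and all 10 passed the filter on low counts that left 18031 genes for testing. The tumours were grown from B2905 cells, also called M4, a transplantable melanoma line from a C57BL/6 background, implanted into C57BL/6 mice for which no age or sex is stated. Antibody treatment began when tumours averaged 75 mm3, at 10 mg/kg, 2 doses a week for 2 weeks. The control group was 5 tumours of mice given isotype IgG2b. The other 20 tumours came from mice given anti-CTLA-4, an antibody against an inhibitory receptor of T cells, and were sorted by their growth 10 to 11 days after the last dose. There were 6 non-responders, which kept growing, 6 stable tumours, which held their size, and 8 responders, which shrank. Every group, controls included, thus received an antibody, and all tumours came from 1 cell line. Each library is labelled as 1 tumour with no batch or date, and p-values measure the spread between these tumours only.

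Class II molecules carry peptides made in endosomes to the cell surface, where CD4+ T cells read them. Macrophages, dendritic cells and B cells make them constitutively or on activation, and many other cells, melanoma cells among them, can make them when exposed to interferon gamma. Interferon gamma acts through the kinases Jak1 and Jak2 and the factor Irf1 to switch on Ciita, which binds no DNA itself but is recruited by the RFX complex on the X box, the CREB factor beside it and the NF-Y complex on the Y box of class II promoters. In the endosome, Cd74 occupies the groove of the new molecule, cathepsin S trims it, H2-M exchanges the remaining fragment for peptides, and H2-O restrains H2-M in B cells and some dendritic cells. C57BL/6 mice express no H2-E protein at the surface because their alpha chain gene is defective, although H2-Eb1 RNA is made.

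The 8 H2 genes stand together on chromosome 17 between the start of H2-Oa at 34092340 and the end of H2-Eb1 at 34316674, and Ciita lies apart on chromosome 16 from 10480059 to 10528418 (GRCm38, GENCODE release 21). Promoter sequences, from RefSeq on GRCm38.p6 and spanning 250 bases before to 50 after the start of transcription, were held for 7 of the 10 genes in 8 entries. The 6 windows below are shown because these genes, spread over the chain, editor and inhibitor groups, carry the same arrangement in front of their starts. Capitals mark GCAAC or ATGATG, words searched for in the stretch of the X and neighbouring X2 boxes, and TGATTGG, the letters of the Y box. The words do not cover every form of these boxes, so a window without ATGATG may still hold an X2 box.
H2-Oa, chr17:34092295-34092346, plus strand: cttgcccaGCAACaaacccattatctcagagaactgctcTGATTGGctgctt
H2-DMb2, chr17:34145125-34145169, plus strand: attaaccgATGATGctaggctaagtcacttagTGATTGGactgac
H2-DMb1, chr17:34153096-34153140, plus strand: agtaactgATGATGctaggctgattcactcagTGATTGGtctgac
H2-Ob, chr17:34238810-34238858, plus strand: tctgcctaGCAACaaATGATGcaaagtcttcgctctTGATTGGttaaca
H2-Aa, chr17:34287861-34287912, minus strand: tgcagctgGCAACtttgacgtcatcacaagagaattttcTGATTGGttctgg
H2-Eb1, chr17:34305768-34305818, plus strand: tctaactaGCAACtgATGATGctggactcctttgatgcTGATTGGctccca

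In this arrangement H2-Ob and H2-Eb1 held all 3 words, H2-Oa and H2-Aa held GCAAC without ATGATG, and H2-DMb1 and H2-DMb2 held ATGATG without GCAAC. The Y-box word began 45 to 92 bases before the start, and 15 to 26 bases separated it from the nearest word upstream. Neither entry of H2-DMa held the pair. Searched on both strands, GCAAC was in 35.2%, ATGATG in 11.2% and TGATTGG in 7.82% of all 32851 promoter entries. The pair, GCAAC or ATGATG followed 10 to 40 bases later by TGATTGG, was in 0.332% of them. The words were chosen after the members' promoters had been read, so these shares describe the promoters and test nothing.

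Libraries held 8764580 to 34311295 counts. The share of counts on protein-coding genes was 82.89% to 89.17% in the 17 control, non-responder and stable tumours, but 23.8% to 74.35% in 7 of 8 responders and 86.98% in responder 5. Levels below are CPM, each count as a share of its library with library sizes scaled by TMM, differences are on the log2 scale, and comparisons between genes use RPKM, which also divides by gene length, from the authors' second table. In these whole-tumour libraries, fewer cells of a type and less RNA per cell cannot be told apart.

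All 10 genes were higher in anti-CTLA-4 tumours than in IgG2b controls, whatever the outcome. In stable tumours, in responders and in non-responders alike, 10 of 10 passed an adjusted p of 0.05 (edgeR's quasi-likelihood test with Benjamini-Hochberg adjustment over all genes tested). Over all genes tested, 41.8% were called in stable tumours (22.2% higher, 19.6% lower), 65% in responders (36.1% higher, 28.9% lower) and 13.9% in non-responders (10.6% higher, 3.29% lower). The median log2 difference of the 10 genes was 3.25 in stable tumours, 2.54 in responders and 2.19 in non-responders, beside 0.02, 0.16 and 0.04 over all genes. These 3 comparisons share the 5 control tumours. Among the treated tumours the levels ran, for 9 of the 10 genes, from non-responders through responders to stable tumours when group means in CPM are ordered, with H2-DMb2 close to equal in responders and non-responders. In RPKM the H2-DMb2 means took the same order as the other genes (44.5, 49.85 and 89.14).

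Ciita had the largest difference between responders and non-responders of the 10 members. Its level in the 5 controls was 9.40, 18.5, 14.1, 15.9 and 33.7 CPM. Non-responders spanned 27.8 to 173 CPM with a median of 88.6. Responders lay between 110.3 and 193 CPM with a median of 161, and stable tumours between 146 and 243 CPM with a median of 186. No responder or stable tumour reached down to the highest control, whereas the non-responder range ran from within the control range to within that of the other treated groups.

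The log2 difference of Ciita from controls was 3.38 (SE 0.38, adjusted p = 8.37e-07) in stable tumours, a 10.4-fold difference. In responders it was 3.08 (SE 0.36, adjusted p = 3.69e-07), and in non-responders 2.29 (SE 0.36, adjusted p = 0.000462). Responders exceeded non-responders by 0.80 (SE 0.30, adjusted p = 0.0337), and stable tumours exceeded non-responders by 1.09 (SE 0.32, adjusted p = 0.0255). Responders and stable tumours differed by -0.30, with a 95% interval of -0.91 to 0.32 (adjusted p = 0.441). Ciita was the 1 member of 10 called between responders and non-responders, where 48.9% of all genes were called, 25.2% higher and 23.8% lower. That call was lost without responder 8 or without non-responder 1, 2 or 3 (adjusted p from 0.0566 to 0.0832), without the responders lowest in protein-coding share, 1 and 4 (0.0768), and with that share as a covariate (0.23).

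**Figure D1:**
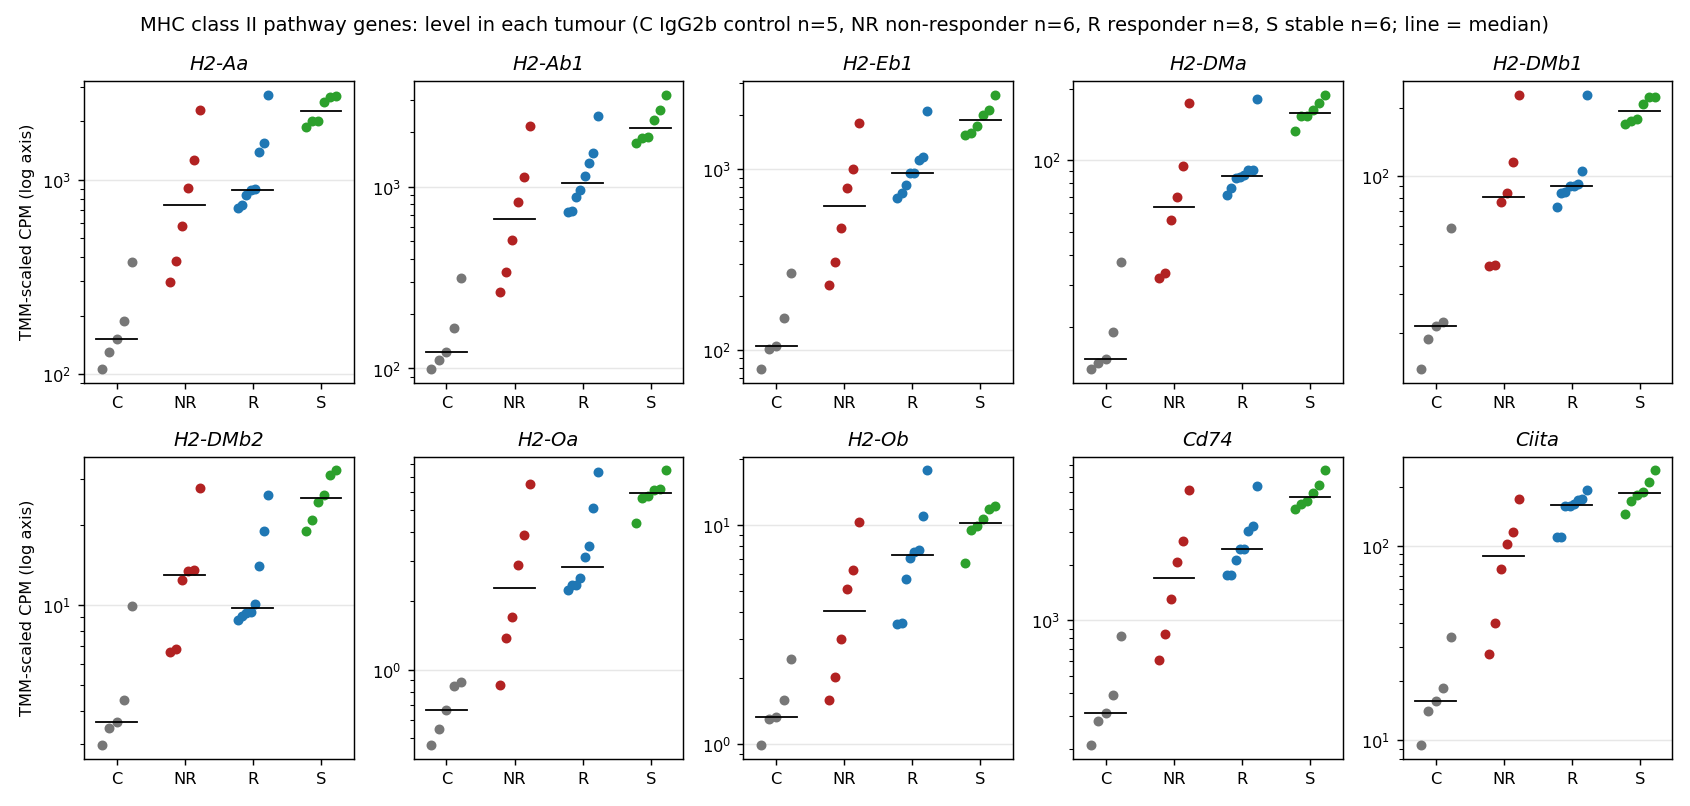
Level of each of the 10 class II pathway genes in each of the 25 tumours, in TMM-scaled CPM on a log10 axis, by group; each point is 1 tumour and the line is the group median. Controls have the lowest median for every gene, non-responders are the most spread treated group for most genes, and responder 5 stands above the other 7 responders for the chains, Cd74 and the DM genes.

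H2-Aa and H2-Ab1 encode the alpha and beta chains of H2-A, the presenting molecule of this strain. H2-Ab1 stood at 98.8, 167, 111, 123 and 315 CPM in the controls. In non-responders it ranged from 264 to 2148 CPM with a median of 667, in responders from 729.6 to 2452 CPM with a median of 1052, and in stable tumours from 1729 to 3201 CPM with a median of 2104. Stable tumours lay above all controls, and 7 of 8 responders lay below every stable tumour. Non-responder 6, at 2148 CPM, lay inside the stable range, and non-responder 3, at 264 CPM, lay inside the control range.

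The stable tumours exceeded controls 13.9-fold in H2-Ab1 (log2 difference 3.80, SE 0.49, adjusted p = 2.57e-06) and exceeded non-responders 2.61-fold (1.39, SE 0.42, adjusted p = 0.028). Between responders and non-responders the difference in H2-Ab1 was 0.49, with a 95% interval of -0.31 to 1.30 (adjusted p = 0.296). Between responders and stable tumours it was -0.89, with an interval of -1.69 to -0.10 (adjusted p = 0.0649).

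H2-Aa was at 106, 188, 130.3, 152 and 376 CPM in the controls. It ranged from 298 to 2287 CPM in non-responders (median 743), from 712 to 2736 CPM in responders (median 889.9) and from 1862 to 2701 CPM in stable tumours (median 2269). As for H2-Ab1, 7 of 8 responders were below all stable tumours, but responder 5 was above them all. H2-Aa differed by 1.27 (SE 0.42, adjusted p = 0.0436) between stable tumours and non-responders and by -0.92 (SE 0.39, adjusted p = 0.0627) between responders and stable tumours. H2-Eb1, the beta chain of H2-E, was at 78.3, 150.3, 101, 106 and 268 CPM in controls, with medians of 628.5, 957 and 1863 CPM in non-responders, responders and stable tumours. H2-Eb1 differed by 1.33 (SE 0.39, adjusted p = 0.0259) between stable tumours and non-responders. Among other class II loci, H2-Ea-ps, the alpha chain pseudogene of this strain, had 0 counts over the 25 libraries, whose counts total 478873680, which allows up to 0.00626 CPM, a limit for counting error only. H2-Eb2, a further beta chain gene, was called higher than in controls in all 3 treated groups (log2 differences 3.48 in stable tumours, 2.57 in responders and 2.43 in non-responders).

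Cd74, the invariant chain that fills the groove and guides new class II molecules to endosomes, had the highest level of the 10 members, per length as well as in CPM. Its CPM values are given here. Controls held 209, 390.1, 284, 314 and 817 CPM. Non-responders ranged from 606 to 5080 CPM (median 1689), responders from 1756 to 5387 CPM (median 2452) and stable tumours from 4024 to 6516 CPM (median 4679). Its ranking of groups was that of the chains, with 7 of 8 responders below every stable tumour. Cd74 differed by 1.23 (SE 0.41, adjusted p = 0.0437) between stable tumours and non-responders, and by -0.83 (95% interval -1.61 to -0.05, adjusted p = 0.0828) between responders and stable tumours.

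H2-M is built from H2-DMa with either H2-DMb1 or H2-DMb2. H2-DMa was at 13.3, 19.1, 14.2, 14.6 and 37.5 CPM in controls. Its range was 32.0 to 174 CPM in non-responders (median 63.4), 71.5 to 182 CPM in responders (median 85.8) and 132 to 188 CPM in stable tumours (median 158). Stable tumours exceeded controls 8.15-fold in H2-DMa (log2 difference 3.03, SE 0.38, adjusted p = 2.08e-06) and non-responders by 1.06 (SE 0.33, adjusted p = 0.0339). The fold over controls was smaller than the 13.9-fold of H2-Ab1, a contrast taken up with the ratios below.

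H2-DMb1 was at 13.8, 18.9, 21.6, 22.5 and 58.7 CPM in controls, with medians of 80.5 CPM in non-responders, 90.4 CPM in responders, against 194 CPM in stable tumours. H2-DMb2 was at 3.47, 3.65, 2.97, 4.38 and 9.93 CPM in controls, with medians of 13.0, 9.77 and 25.3 CPM in the same order. Both beta chains were lower in responders than in stable tumours, H2-DMb1 by -0.89 (SE 0.35, adjusted p = 0.0458) and H2-DMb2 by -0.94 (SE 0.32, adjusted p = 0.0233). They were the 2 of 10 members called in that comparison, where 38.2% of all genes were called, 20.5% higher and 17.8% lower. The H2-DMb1 call was lost in 19 of 24 alternatives, among them leaving out any 1 tumour other than responder 5. Both calls were lost with protein-coding share as a covariate (adjusted p = 0.548 for H2-DMb1 and 0.52 for H2-DMb2) and without responders 1 and 4 (0.124 and 0.0848). As most responders lay below all other tumours in that share, the covariate cannot be separated from the responder group. In CPM, H2-DMb2 was also the member for which responders overlapped controls, with 4 of 8 above all controls. In RPKM all 8 responders (33.58 to 99.35) lay above the highest control (28.52).

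The levels of the DM beta chains are uncertain as a pair. H2-DMb1 and H2-DMb2 share 22.7% and 21.2% of their 50-base words, and 11.3% and 10.3% of their 100-base words. H2-Ab1 and H2-Eb1 share 0 of either length. Reads from the shared stretches can be assigned to either DM beta gene. The deposited tables split them differently: H2-DMb1 exceeded H2-DMb2 7.34-fold in the counts but 1.46-fold in RPKM over the 25 tumours. Both tables put each of these genes lower in responders than in stable tumours. Why the tables split the reads differently was not tested.

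H2-O pairs H2-Oa with H2-Ob. H2-Oa was at 0.467, 0.848, 0.665, 0.548 and 0.8795 CPM in controls, with medians of 2.29 CPM in non-responders, 2.82 CPM in responders, against 5.94 CPM in stable tumours. H2-Ob was at 1.30, 1.58, 1.33, 0.986 and 2.43 CPM in controls. It ranged from 1.59 to 10.3 CPM in non-responders (median 4.05), from 3.54 to 17.8 CPM in responders (median 7.28) and from 6.71 to 12.2 CPM in stable tumours (median 10.3). H2-Ob was unlike the other structural genes in that 3 of 8 responders, not 6 or 7, lay below every stable tumour.

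For H2-Ob, responders exceeded non-responders by 0.76 (95% interval -0.02 to 1.54, adjusted p = 0.0936) and differed from stable tumours by -0.34 (interval -1.09 to 0.42, adjusted p = 0.477). For H2-Oa the difference between responders and stable tumours was -0.72 (interval -1.44 to 0.00, adjusted p = 0.102). Responder 6 had the highest H2-Ob level of any tumour, 17.8 CPM, and also the highest summed level of 4 B cell markers (Cd79a, Cd79b, Ms4a1 and Pax5), 22.4 CPM. In responder 1 the same markers summed to 1.12 CPM and H2-Ob stood at 3.57 CPM. These markers summed to 1.14 to 3.21 CPM in controls, 2.92 to 12.5 CPM in non-responders, 1.12 to 22.4 CPM in responders and 6.92 to 13.2 CPM in stable tumours. Their part in the H2-Ob level was not tested.

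The comparison of stable tumours with non-responders called most of the members. Between stable tumours and non-responders 6 of 10 members were called, all higher (H2-Aa, H2-Ab1, H2-Eb1, H2-DMa, Cd74 and Ciita), where 14.9% of all genes were called, 7.08% higher and 7.86% lower. The other 4 were also placed higher, by 0.93 to 1.10, with adjusted p from 0.0621 to 0.0709. The median difference was 1.09 over the members and -0.02 over all genes. Single tumours moved this count: without non-responder 6 all 10 were called, without non-responder 1, 2 or 3 or stable tumour 3 the count was 0, without stable tumour 4 it was 2, and without stable tumour 2 or non-responder 5 it was 3. A fit of only these groups called 0. The share of all genes called in each of these fits is not given here, so these counts cannot be set against it.

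Between responders and non-responders the median member difference was 0.38, beside 0.05 over all genes, and without non-responder 6 the call extended to 6 members (H2-Ab1, H2-Eb1, H2-DMa, H2-Ob, Cd74 and Ciita). Between responders and stable tumours the median was -0.84, beside 0.01 over all genes. Without responder 5, which had the highest level of 8 members and the highest protein-coding share among responders, 8 of 10 members were called lower in responders, with H2-Ob (-0.42) and Ciita (-0.32) not called. Without any other single tumour the call was left to H2-DMb2, and without responders 1 and 4 it was lost (adjusted p = 0.0848). As above, the share of all genes called without a given tumour is not given here.

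**Figure D2:**
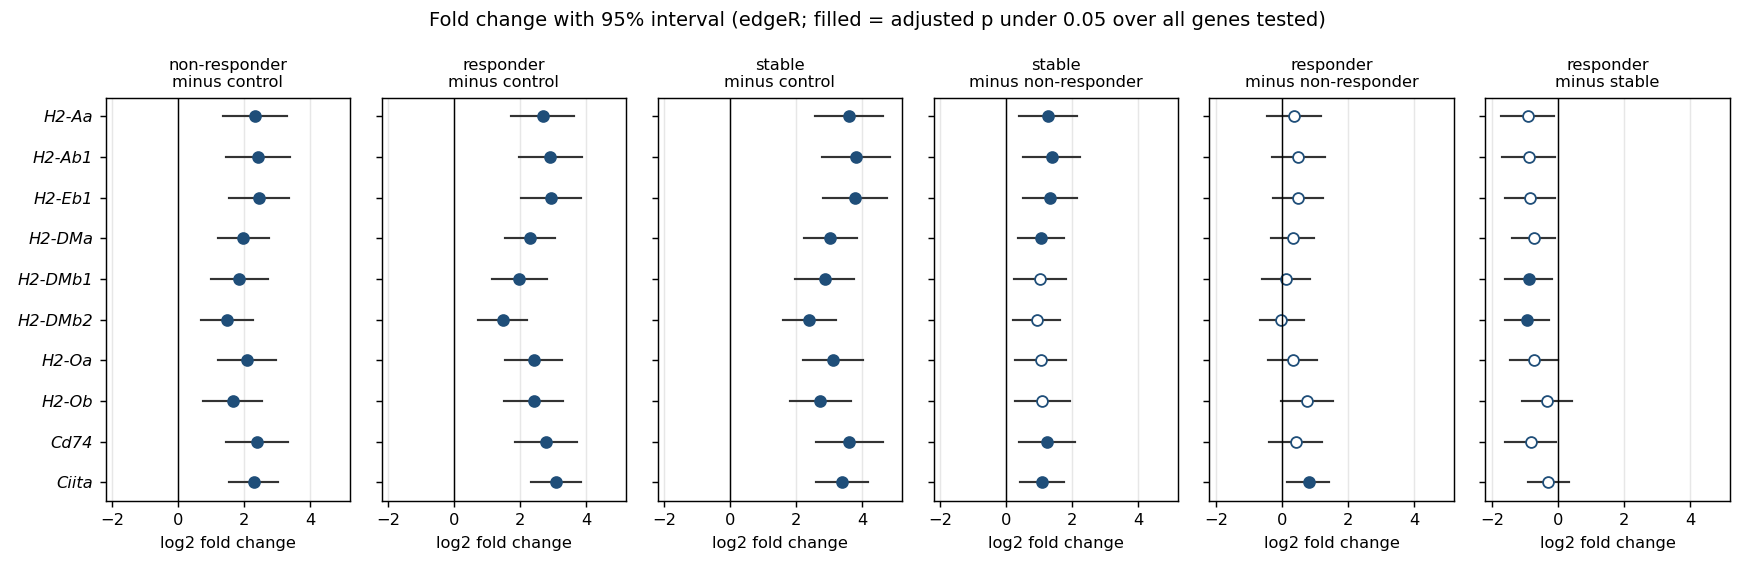
Log2 difference in level between groups for each member in each comparison, with 95% intervals from the fit over all genes; filled points passed an adjusted p of 0.05. Every difference from controls is filled, and for Ciita and H2-Ob the difference of responders from stable tumours is smaller than their difference from non-responders.

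Ciita and H2-Ab1 were compared across tumours within each treated group. In the 6 non-responders, Ciita and H2-Ab1 ranked the tumours identically, with Pearson's r = 0.97 on log2 CPM (exact permutation p = 0.00278, two-sided, adjusted p = 0.0139 over 5 relations). Spearman's rho was 1.00 (exact permutation p = 0.00278, the smallest that the ranks of 6 tumours allow), and r was 1.00 without the 2 tumours farthest from the median. Ptprc, a leukocyte marker, gave these 6 tumours the same order, from 84.1 CPM in non-responder 3 to 445 CPM in non-responder 6. So did the summed macrophage and monocyte markers and the summed conventional dendritic cell markers described below. The identical ranking was thus not particular to Ciita. In the 8 responders r was -0.35 (exact permutation p = 0.39, adjusted 0.474, rho -0.31 with p = 0.462, r without the 2 farthest -0.02). In the 6 stable tumours r was 0.47 (exact permutation p = 0.353, adjusted 0.474, rho 0.31 with p = 0.564, r without the 2 farthest -0.76). A difference between these correlations was not tested.

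The responders held Ciita within 110.3 to 193 CPM while H2-Ab1 ranged from 729.6 to 2452 CPM. Responder 8 had the highest Ciita level of the group, 193 CPM, and the second lowest H2-Ab1 level, 739 CPM. Protein-coding share across the 8 responders gave r = 0.42 with H2-Ab1 (exact permutation p = 0.292, adjusted 0.474, rho 0.67 with p = 0.0831, r without the 2 farthest 0.66). With Ciita it gave r = -0.30 (exact permutation p = 0.474, adjusted 0.474, rho -0.36 with p = 0.389, r without the 2 farthest -0.56).

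**Figure D3:**
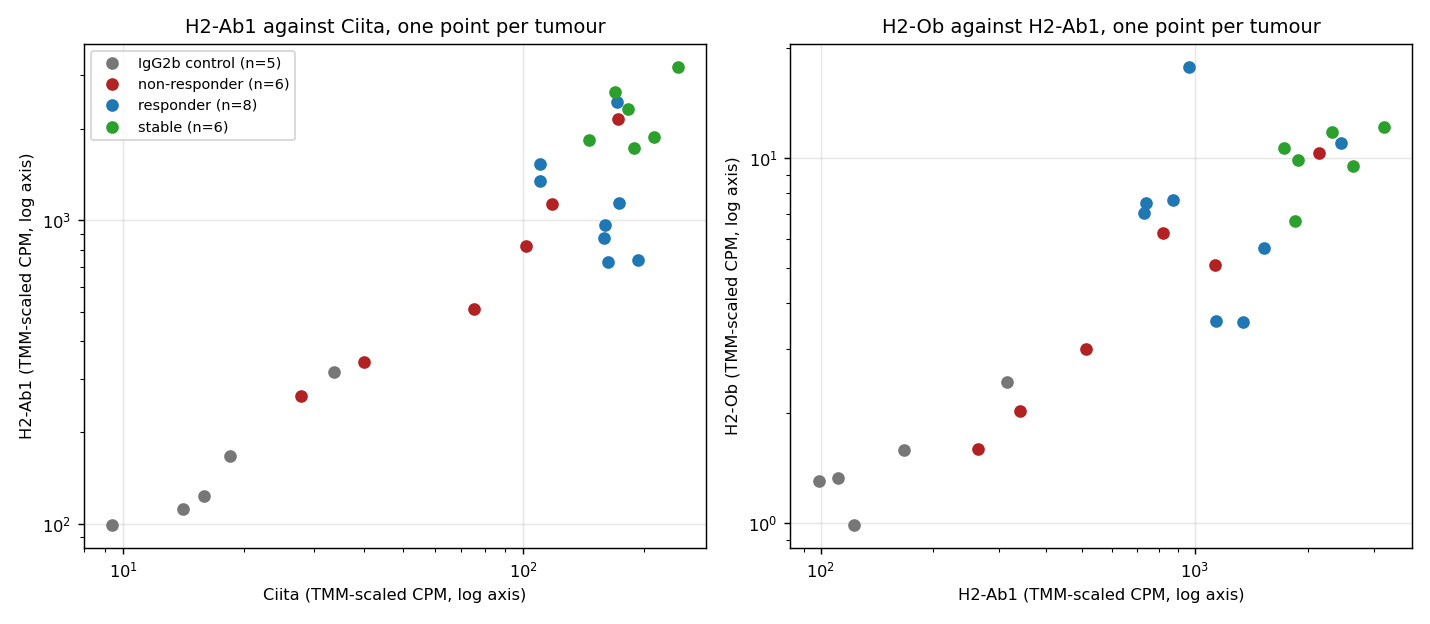
H2-Ab1 against Ciita (left) and H2-Ob against H2-Ab1 (right) in each tumour, in TMM-scaled CPM on log10 axes, with 1 point a tumour coloured by group. Non-responders rise together in Ciita and H2-Ab1, the 8 responders lie between 110.3 and 193 CPM of Ciita and between 729.6 and 2452 CPM of H2-Ab1, and responder 6 is the highest point in H2-Ob at 17.8 CPM.

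On the per-length RPKM scale, Cd74 exceeded H2-Ab1 2.12-fold over the 25 tumours, and the chains stood close together, with H2-Aa 1.10-fold above and H2-Eb1 1.13-fold below H2-Ab1. H2-DMa lay below them, and its ratio to H2-Ab1 was given for each group. The log2 ratio was -3.38 ± 0.07 (SD, n = 5) in controls, -3.75 ± 0.26 (n = 6) in non-responders, -3.98 ± 0.32 (n = 8) in responders and -4.16 ± 0.23 (n = 6) in stable tumours. The control ratios, -3.47 to -3.28, overlapped neither the stable ones, -4.43 to -3.87, nor the responder ones, -4.53 to -3.65. They overlapped those of non-responders, -3.99 to -3.30. How many other gene pairs separate these groups was not counted. The ratio of Ciita to H2-Ab1 was -5.25 ± 0.18 in controls, -5.32 ± 0.33 in non-responders, -4.91 ± 0.83 in responders and -5.75 ± 0.36 in stable tumours. Responders had the widest spread in that ratio, from -6.05 to -3.83.

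The inhibitor was scarce beside the editor in every group. H2-Oa stood at a log2 ratio of -4.35 ± 0.50 to H2-DMa in controls, -4.35 ± 0.47 in non-responders, -4.32 ± 0.36 in responders and -4.28 ± 0.08 in stable tumours. The group means of this ratio thus differed by less than the SD within any group. H2-Ob stood at -5.13 ± 0.55, -5.48 ± 0.43, -4.90 ± 0.75 and -5.37 ± 0.24 to H2-DMb1 in the same order. These ratios are descriptions and were not tested.

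**Figure D4:**
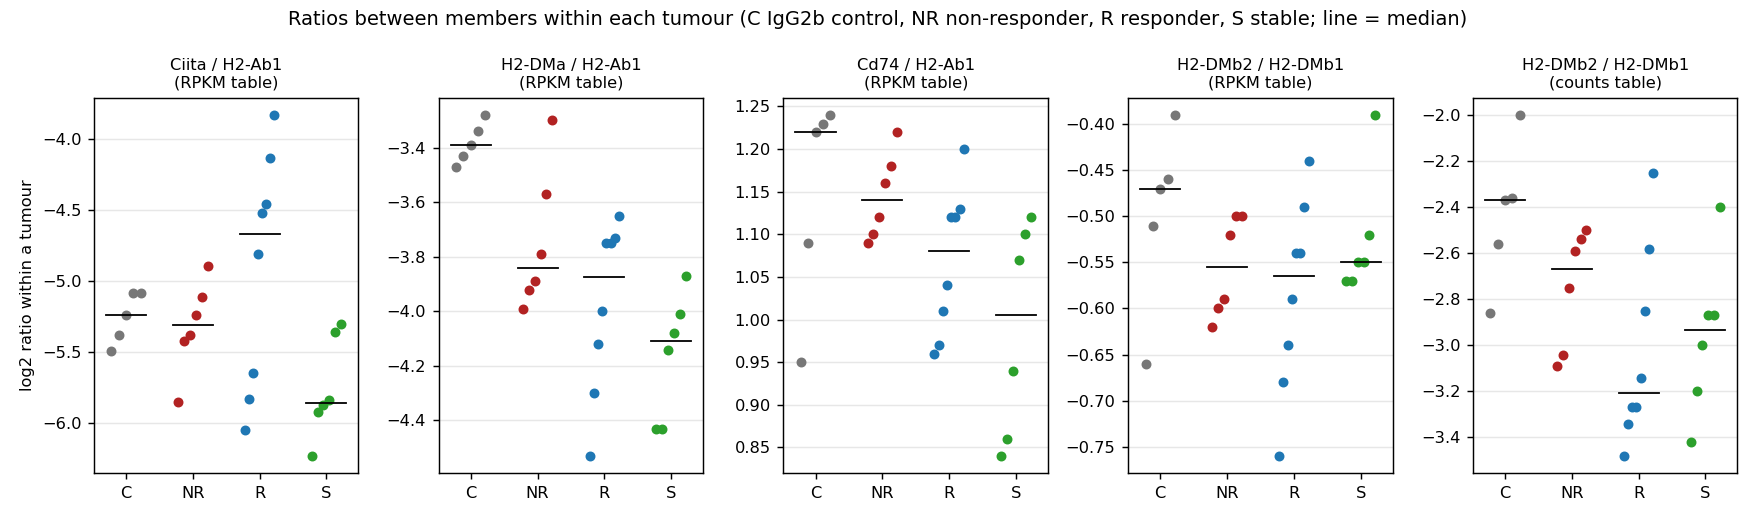
Log2 ratio between members within each tumour by group, from RPKM for Ciita, H2-DMa and Cd74 over H2-Ab1 and from RPKM and counts for H2-DMb2 over H2-DMb1 (points are tumours, lines are group medians, and each panel has its own vertical range). The control ratios of H2-DMa to H2-Ab1 overlap neither the stable nor the responder ones. The ratio of Ciita to H2-Ab1 is most spread in responders, and the H2-DMb2 to H2-DMb1 ratio is near -0.55 in RPKM and near -2.82 in counts.

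Of the proteins through which Ciita acts at the promoter (Rfx5, Rfxap, Rfxank, Nfya, Nfyb, Nfyc and Creb1), 0 of 7 were called higher in the stable than in the non-responder group and 1 was lower, Nfyc, a subunit of NF-Y, by -0.61 (adjusted p = 0.0162). None was called higher there at an unadjusted p under 0.05, in DESeq2 or in limma on RPKM either. In responders against stable tumours 1 was higher (Rfxank, 0.40, adjusted p = 0.0242) and 3 were lower (Nfyb, -0.42, Nfyc, -0.41, and Rfxap, -0.30), where limma on RPKM called 1 higher and 0 lower. The summed level of the 7 genes was 232 to 258 CPM in controls and 229 to 267 CPM in stable tumours. Within that sum single genes were called in opposite directions. Against controls, Rfx5 was higher (0.49, adjusted p = 0.0119) and Nfyc lower (-0.89, adjusted p = 0.000196) in stable tumours. In responders 2 were higher and 3 lower than in controls, beside 36.1% and 28.9% of all genes. In non-responders 0 were called. The shares of all genes called in each comparison, given above, stand beside every list count here and below.

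Of 7 genes of the interferon gamma route to Ciita, 5 were called higher in the stable than in the non-responder group. They were the kinases Jak1 (0.46, adjusted p = 0.0157) and Jak2 (0.54, adjusted p = 0.0308), the feedback inhibitor Socs1 (1.00, adjusted p = 0.0286), the factor Irf1 (0.88, adjusted p = 0.0372) and the receptor chain Ifngr2 (0.39, adjusted p = 0.038). Ifng itself differed by 1.11 there (adjusted p = 0.167), and it was higher than in controls in stable tumours (4.76), responders (4.00) and non-responders (3.66). Between responders and stable tumours 3 of 7 were lower: Jak1 (-0.52), Ifngr2 (-0.36) and Jak2 (-0.43). Limma on RPKM called 1 of 7 lower there, and 7 of 7 higher in the stable than in the non-responder group. Between responders and non-responders 1 of 7 was called, Socs1, higher by 0.74 (adjusted p = 0.036), where limma on RPKM called 2 higher.

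Among 9 genes of endosomal processing and class II turnover, 3 were higher in the stable than in the non-responder group. They were March1, a ligase that removes class II from the surface (1.15, adjusted p = 0.0145), Ctsh (1.06, adjusted p = 0.0173) and Ctss, the protease that trims Cd74 (1.76, adjusted p = 0.0238). Between responders and stable tumours 5 of 9 were lower: Ctsb (-0.76), March8 (-0.39), Lgmn (-0.77), Ifi30 (-0.77) and Ctsd (-0.81). Ctss was not among them (-0.65, adjusted p = 0.266). Of 9 class I pathway genes, 2 were higher in the stable than in the non-responder group (Tapbp, 0.99, and Tap2, 0.82) and 2 were lower in responders than in stable tumours, B2m (-1.09, adjusted p = 0.0125) and Psmb8 (-0.89, adjusted p = 0.0193). Over all genes, 7.08% were called higher in the former comparison and 17.8% lower in the latter. Nlrc5, the class I counterpart of Ciita, was higher in the responder than in the non-responder group by 0.93 (adjusted p = 0.00409).

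Markers of cells that make class II were examined beside the members. The 8 macrophage and monocyte markers counted here summed to 636 to 1178 CPM in controls, 1046 to 8339 CPM in non-responders, 2467 to 10319 CPM in responders and 6118 to 9390 CPM in stable tumours. Responder 5, the highest responder in H2-Ab1, was also the highest responder in these markers at 10319 CPM, and non-responder 6 was the highest non-responder in both. Between stable tumours and non-responders 3 of 8 were called higher, the monocyte and macrophage receptor Csf1r (1.00, adjusted p = 0.0196), Cd68 (1.38) and Lyz2 (1.54). Between responders and stable tumours 5 were lower, Fcgr1 (-1.18) and Adgre1 (-1.10) with the smallest p, and 1 was higher, Mertk (0.38). Limma on RPKM called 4 lower and 1 higher there, and 5 higher in the stable than in the non-responder group. Of the same 8, 1 was called in either direction, Mertk (0.73, adjusted p = 0.000459), higher in responders against non-responders, where limma on RPKM called 2 higher. Against controls, 7 of 8 were higher in stable tumours and in responders and 6 of 8 in non-responders.

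The 8 conventional dendritic cell markers summed to 24.9 to 67.0 CPM in controls, 50.1 to 343 CPM in non-responders, 162 to 385 CPM in responders and 254 to 392 CPM in stable tumours. Itgax (1.33, adjusted p = 0.0276) and Ccr7 (1.36, adjusted p = 0.0427) were higher in the stable than in the non-responder group, and Cd209a (-1.19) and Xcr1 (-1.04) were the 2 of 8 lower in responders than in stable tumours. The other 6 were not called there and lay between -0.66 (Ccr7) and 0.41 (Clec9a). Over all genes, 17.8% were called lower in responders than in stable tumours. In responders against non-responders Clec9a (1.39, adjusted p = 0.00345) and Itgax (0.97, adjusted p = 0.0366) were higher and Cd209a (-1.33, adjusted p = 0.0139) was lower. Of the 4 B cell markers, 0 were called between stable tumours and either other treated group in edgeR, at an unadjusted p under 0.05, in DESeq2 or in limma on RPKM. In responders against non-responders edgeR and DESeq2 also called 0 of these 4, with 1 higher at an unadjusted p under 0.05 and 1 called higher by limma on RPKM. Ptprc, the leukocyte surface phosphatase CD45, was higher in the stable than in the non-responder group by 1.07 (adjusted p = 0.0161) and in responders than in non-responders by 0.82 (adjusted p = 0.0166), and differed by -0.25 between responders and stable tumours (adjusted p = 0.477). Of 3 plasmacytoid dendritic cell markers, Bst2 was lower in responders than in stable tumours (-0.91) and than in non-responders (-0.78). Of 5 T cell markers, Cd4 was higher in stable tumours than in the non-responder group (0.99, adjusted p = 0.0298), and Cd3e (1.27, adjusted p = 0.0067) and Foxp3 (0.88, adjusted p = 0.0423) were higher in responders against non-responders. None of 4 keratinocyte markers was called by edgeR in any of the 6 comparisons, although in responders against stable tumours 2 passed an unadjusted p of 0.05 and 2 were called higher by DESeq2, which also called 1 lower in responders against non-responders and against controls. The part of these cell types in the member levels was not tested.

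Tumour cell genes were followed by 7 melanocytic markers (Mlana, Pmel, Dct, Tyr, Tyrp1, Sox10 and Mitf), which summed to 10504 to 17110 CPM in controls. They summed to 723 to 13867 CPM in non-responders, 303 to 722 CPM in responders and 228 to 504 CPM in stable tumours. In the 6 non-responders the summed melanocytic level was 3521, 6983, 13867, 1230, 904 and 723 CPM in order of their numbers, and H2-Ab1 was 511, 340.5, 264, 1128, 823 and 2148 CPM. The non-responders with the highest melanocytic sums, 3 and 2, thus had the lowest H2-Ab1 and Ciita levels, and non-responder 6 had the lowest sum and the highest class II levels. All 7 were lower in the stable than in the non-responder group, from -0.71 for Sox10 to -6.59 for Dct, and all 7 in responders against non-responders. In responders against stable tumours 0 of 7 melanocytic markers were called by edgeR, at an unadjusted p under 0.05, by DESeq2 or by limma on RPKM, with differences from -0.36 to 1.36. The part of melanocytic cell share in the class II levels was not tested.

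Genes outside the members with the most similar pattern over the 25 tumours were ranked by Pearson's r of log2 CPM among 13494 genes. For H2-Ab1 they were Cyp4f18 (0.987), C3 (0.987), Cybb (0.986), Itgb2 (0.985) and Entpd1 (0.984). For Ciita they were Il10ra (0.989), Rasgrp1 (0.987), Myo1g (0.986), Zap70 (0.984) and Gbp4 (0.984), and for H2-Ob they were Klhl6 (0.961), Il12b (0.961), Cd22 (0.955), Stat4 (0.954) and Birc3 (0.952). No gene is in more than 1 of these 3 groups of 5, which are small beside the 13494 genes ranked. On deviations from group means, r was 0.935 to 0.962 for the 5 genes of H2-Ab1. It was 0.914 to 0.963 for those of Ciita and 0.854 to 0.880 for those of H2-Ob. Among the members, H2-Eb1 and Cd74 followed H2-Ab1 most closely (0.998 each), and H2-Ob least (0.892). With each group's mean removed, r with H2-Ab1 was 0.991 for H2-Eb1, 0.747 for Ciita and 0.624 for H2-Ob. These values share libraries and group differences and are given as descriptions.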

How the data were processed

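RNA of 25 tumours was sequenced from a stranded total RNA kit, per the labels' protocols, although the labels call the molecule polyA RNA. The submitters' processing notes name mm10, bcl2fastq 2.17, Trimmomatic, STAR 2.5.1 and RSEM 1.2.22, without roles. The deposited estimated counts are not normalized, 5.64% are not whole, and they were rounded. The authors' deposited RPKM values were used for comparisons between genes. Genes passing edgeR's filterByExpr by group were fitted over all 4 groups (edgeR 4.0.16, TMM, robust quasi-likelihood F test, Benjamini-Hochberg adjustment over 18031 genes, called at 0.05). Intervals are 95% from 21 residual degrees of freedom. The model was tested on simulated data for responders against non-responders (18031 genes, 63% of 2-fold and 82% of 4-fold changes recovered, 2.68% of calls false) and for stable tumours against non-responders (18031 genes, 52% of 2-fold and 80% of 4-fold changes recovered, 4.35% of calls false). Each simulation changed 200 genes and gave a gene the same spread in every group. In the data 48.9% and 14.9% of genes were called in these comparisons, so the simulated rates need not hold there. Alternatives were DESeq2 1.42.0, other filters and scaling, fewer groups, protein-coding genes or share, limma 3.58.1 on log2(RPKM + 1) and log2(RPKM + 0.1), and leaving out each tumour. Promoters come from RefSeq, GRCm38.p6. Members and lists were chosen with earlier results of these data known. From each list up to 4 genes with the smallest p in stable against non-responder tumours and in responders against stable tumours were named, and others where a count was small. Replicate libraries differed beyond sampling noise. One gene each of the B cell, macrophage and interferon gamma lists is not reported here and was left out of their counts and sums.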

Additional observations from a re-analysis of the deposited data

Results flagged for a closer look

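Each member was examined for single tumours that stood apart from their own group, in CPM. In 10 of 40 sets of 1 gene in 1 group the highest tumour's gap to the next exceeded Dixon's 95% limit. About 1 in 20 sets of normally distributed values pass that limit. The CPM used here were not on the log2 scale and can be skewed upwards, so that rate need not hold. The 10 genes are also not independent, and gaps on the log2 scale were not tested. Responder 5 stood above the other 7 responders in 6 genes: H2-Aa at 2736 CPM (next 1542), H2-Ab1 at 2452 CPM (next 1527), H2-Eb1 at 2108 CPM (next 1169), H2-DMa at 182 CPM (next 91.5), H2-DMb1 at 230 CPM (next 105) and Cd74 at 5387 CPM (next 3270). Control 5 stood above the other 4 controls in H2-DMa at 37.5 CPM (next 19.1), H2-DMb1 at 58.7 CPM (next 22.5) and H2-DMb2 at 9.93 CPM (next 4.38). Non-responder 6 stood above the others in H2-DMb2 at 27.7 CPM (next 13.6). Ciita was in none of these sets, and neither were H2-Oa and H2-Ob.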

How the results depend on the processing

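No paired analysis was possible because the labels give no replicate numbers, and those used here follow accession order and pair no tumours across groups. The 10 calls against controls remained 10 in responders and stable tumours in every alternative run, and numbered 8 to 10 in non-responders. With main counts of 6 (stable against non-responder), 2 (responder against stable) and 1 (responder against non-responder), leaving out 1 tumour gave 0 to 10, 1 to 8 and 0 to 6. For stable against non-responder, DESeq2 and both RPKM fits gave 10, no filter 2 and the 2 groups alone 0. For responder against stable, the 2 groups alone gave 7, no filter, the stricter filter, protein-coding genes and log2(RPKM + 0.1) gave 1, and adding protein-coding share to the model or omission of the 2 libraries lowest in it (chosen after seeing the data) gave 0. For responder against non-responder, no filter, the 2 groups alone, the covariate and the same omission gave 0, and log2(RPKM + 0.1) gave 2. All these counts stand without the share of all genes called in the same alternative. From the counts given here alone, a change in the members therefore cannot be told from a change in that share. H2-DMb2 in responders against non-responders turned from -0.02 to 0.07 (stricter filter), 0.03 (protein-coding genes), 0.34 (covariate), 0.32 and 0.33 (RPKM), 0.12 (omission) and, without 1 tumour, lay between -0.23 and 0.33. H2-DMb1 there, without 1 tumour, lay between -0.14 and 0.58, below 0 without responder 5 or non-responder 2 or 3, and H2-Ob in responders against stable tumours turned to 0.05 with the covariate. In responders against controls the median difference of all genes was 0.16, and 0.28 in DESeq2. The cause was not tested. Levels near 1 CPM (H2-Oa, H2-Ob) rest on the fewest counts.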
